A study of Homo sapiens with 12 samples.

Results

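The genes of the JAK-STAT pathway and its feedback inhibitors were followed in prostate cancer cells exposed to MS13, a diarylpentanoid analogue of curcumin. They comprised the kinases JAK1, JAK2 and JAK3, the transcription factors STAT3 and STAT4, the inhibitors SOCS1, SOCS2 and SOCS3, and the kinase PIM1. These 9 genes were taken by name from the 770 genes of the nCounter PanCancer Pathway Panel, and all 9 were measured. The cell lines were DU 145, an androgen-independent line from a brain metastasis, and PC-3, an androgen-independent line from a bone metastasis. MS13-treated DU 145 and MS13-treated PC-3 cells received 16 µM MS13 for 24 h, and DU 145 control and PC-3 control cells received the solvent DMSO alone according to the methods of the study, so that solvent was common to all 4 groups. Each group had 3 samples, 12 in total. DU 145 cells were grown in EMEM and PC-3 cells in F-12K, so that cell line and medium cannot be told apart.

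In this pathway a cytokine or growth factor brings its receptor chains together, and the JAK kinases bound to those chains phosphorylate each other and the receptor. STAT proteins dock on the receptor, are phosphorylated, pair and enter the nucleus, where they bind short DNA elements of target genes. The SOCS genes are classical targets that close the loop, since SOCS1 and SOCS3 inhibit JAK activity and SOCS proteins direct bound partners to degradation. PIM1, a serine/threonine kinase that promotes survival, is another STAT target. In prostate cancer the pathway is best known for signalling by interleukin 6 through STAT3. The panel measures RNA abundance and gives no phosphorylation.

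A normalized count is a raw count of probe molecules scaled by the geometric mean of 40 housekeeping genes of the same sample. Total panel counts ranged over 508284 to 604629 in MS13-treated DU 145, 482298 to 560157 in DU 145 control, 437471 to 495514 in MS13-treated PC-3 and 543954 to 587294 in PC-3 control samples. The background limit was set at the mean plus 2 SD of the 8 negative probes and lay at 20.2 normalized counts in MS13-treated DU 145, 27.1 in DU 145 control, 33.6 in MS13-treated PC-3 and 27.6 in PC-3 control. The differences between PC-3 control replicates 2 and 3 did not exceed the sampling noise significantly (chi-square per degree of freedom of 1.04, p = 0.202, against 1.17 to 2.21 in the other 11 pairs of replicates). Their counts were added and they were counted as 1 sample, which left 11 samples and n = 2 in the PC-3 control group. Values of 1.70 and 2.21 came from pairs with PC-3 MS13 replicate 3, which had the lowest total panel count (437471). The remaining pairs of the 11 lay at 1.17 to 1.39. How much of the spread between replicates is biological was not tested, and the adjusted p-values below rest on that spread. All 8 epithelial markers measured exceeded the limit in every group, with summed levels of 6060 to 6525 in MS13-treated DU 145, 7996 to 8207 in DU 145 control, 12035 to 12127 in MS13-treated PC-3 and 18378 to 18412 in PC-3 control. Of 9 leukocyte markers, 1 exceeded the limit in both DU 145 groups (CD40) and 2 in both PC-3 groups (CD40 and IL7R), while 0 of 5 stromal markers did in any group. Summed leukocyte markers were 253 to 287 in MS13-treated DU 145, 268 to 288 in DU 145 control, 326 to 372 in MS13-treated PC-3 and 273 to 298 in PC-3 control, and the part of these marker levels in the results below was not tested.

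Promoter sequences were examined for the elements that STAT complexes bind, and SOCS1 and PIM1 are shown because they had the largest rises of the 9 genes, SOCS1 in DU 145 and PIM1 in PC-3 cells. RefSeq windows of 300 bases (250 before and 50 after the start, build GRCh38.p14) were held for 8 of the 9 genes, 15 windows in all. The SOCS1 window, chr16:11256155-11256454 on the minus strand, is shown with its match to the interferon-stimulated response element (GAAA, any 2 bases, GAAA) in capitals, and the PIM1 window, chr6:37169902-37170201 on the plus strand, had no match to any of the 3 elements.
SOCS1: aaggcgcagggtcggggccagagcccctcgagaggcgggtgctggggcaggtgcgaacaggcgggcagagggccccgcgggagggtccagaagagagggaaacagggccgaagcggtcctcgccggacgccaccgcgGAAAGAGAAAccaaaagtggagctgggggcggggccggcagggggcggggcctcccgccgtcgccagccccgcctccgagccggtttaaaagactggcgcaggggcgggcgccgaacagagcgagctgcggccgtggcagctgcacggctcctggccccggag
PIM1: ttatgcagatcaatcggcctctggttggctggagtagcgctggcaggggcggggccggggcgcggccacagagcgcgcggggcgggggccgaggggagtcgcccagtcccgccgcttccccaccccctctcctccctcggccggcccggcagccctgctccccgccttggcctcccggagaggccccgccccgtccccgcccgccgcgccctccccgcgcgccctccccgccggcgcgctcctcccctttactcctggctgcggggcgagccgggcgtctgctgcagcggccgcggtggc
Both strands were searched. The interferon-stimulated response element was found in 1 of the 15 windows and in 3.57% of all 35116 promoter windows. TTCNNNGAA, the element of most STAT dimers, and the same with 1 more base between TTC and GAA, the element preferred by STAT6, were found in 0 and 0 of the 15 windows, against 7.66% and 6.44% of all windows. Some windows of JAK2 overlap each other, so that the 15 windows are not all separate. A match is a description of the letters, and elements may lie outside a window of this length.

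**Figure D1:**
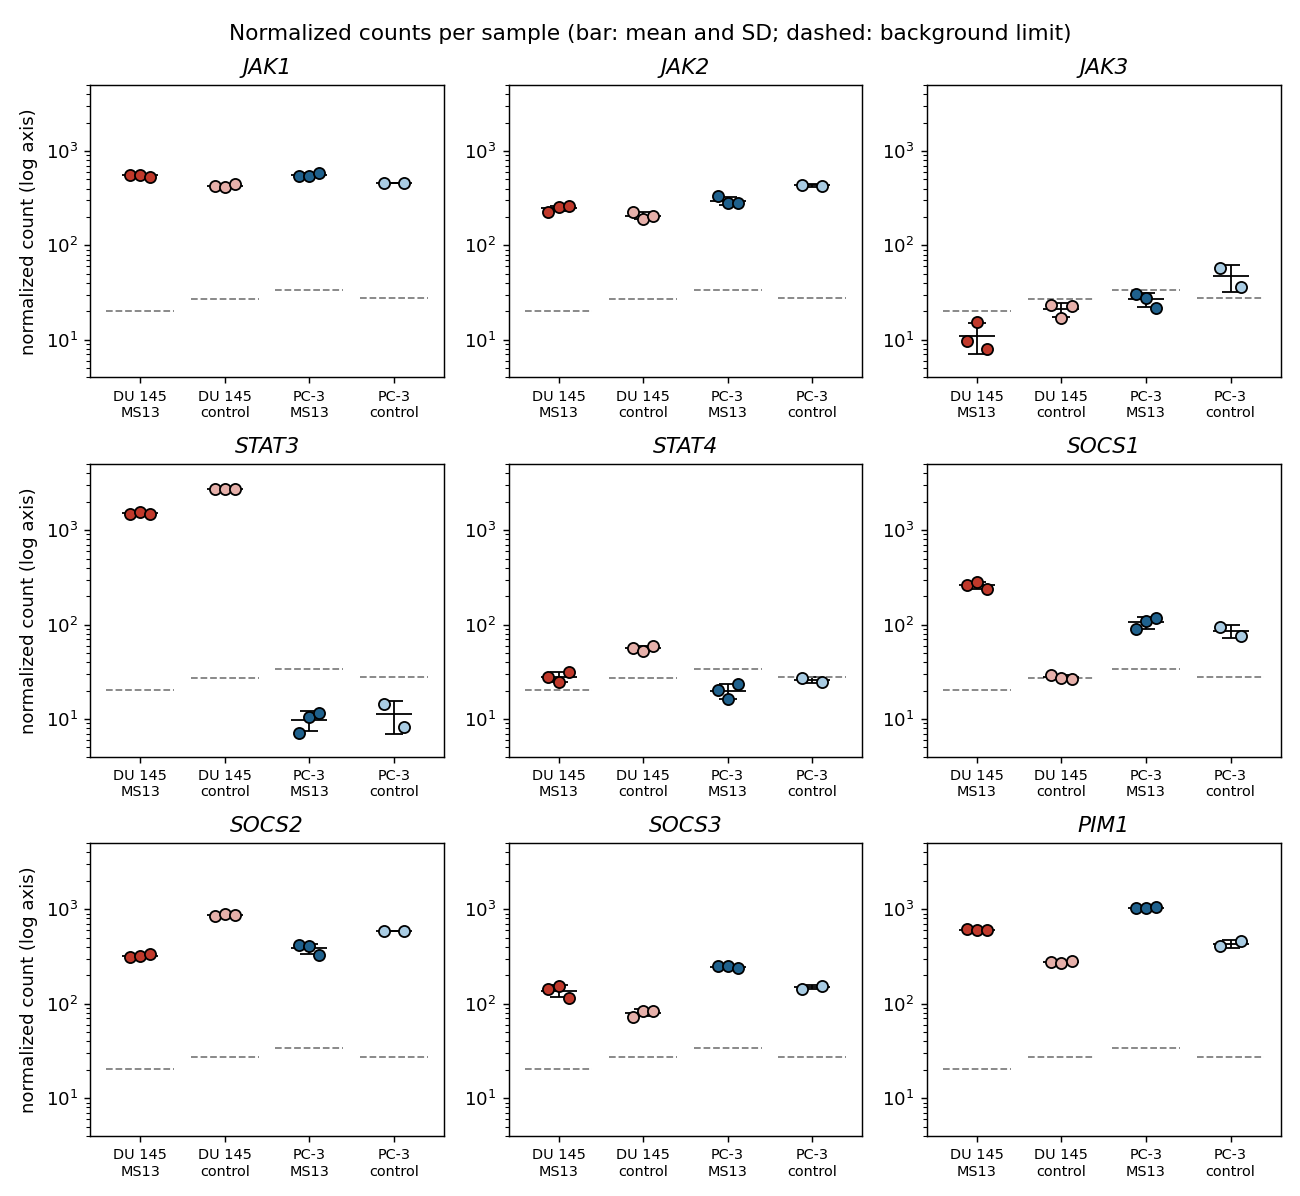
Normalized counts (log axis) of the 9 genes in each sample of the 4 groups, with the group mean and SD as bars and the background limit of each group as a dashed line. STAT3 lies below the limit in both PC-3 groups, and SOCS1 lies at the limit in DU 145 control and between 236 and 281 in MS13-treated DU 145.

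In DU 145 cells all 9 genes were called between MS13 and control by edgeR's quasi-likelihood test with Benjamini-Hochberg adjustment over 684 genes (adjusted p of 0.05 or less). JAK1, JAK2, SOCS1, SOCS3 and PIM1 were called up and STAT3, STAT4, SOCS2 and JAK3 down, the last with both groups under the background limit, which made 5 up, where 19.0% of all genes tested were called up, and 4 down, where 47.1% were called down. With a change of at least 2-fold as a further condition, 3 of the 9 passed (SOCS1 and PIM1 up, SOCS2 down), where 29.5% of all genes did. In PC-3 cells 4 genes rose (JAK1, SOCS1, SOCS3 and PIM1; 21.9% of all genes called up) and 3 fell (JAK2, JAK3 and SOCS2; 36.8% called down). Only PIM1 of the 9 also passed the 2-fold condition in PC-3, where 20.3% of all genes did. The 9 genes had a median log2 fold change of 0.26 in DU 145, against -0.34 over all genes tested, and of -0.06 in PC-3, against -0.09 over all genes tested. The PC-3 median is the value of STAT3, which lay under the background limit in both PC-3 groups, and is not read as a response. In such bulk samples fewer cells of a kind and less RNA per cell cannot be told apart.

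SOCS1 gave the largest response of the group in DU 145. Its normalized counts were 265, 281 and 236 in the MS13-treated DU 145 samples, against 29.0, 27.4 and 26.6 in the DU 145 control samples. All treated samples stood far above all control samples, of which 1 of 3 exceeded the limit of its own negative probes. The log2 fold change was 3.23 (SE 0.13, adjusted p = 2.4e-36), a 9.37-fold rise, and 4.28 after the mean of the negative probes was subtracted, since the control level lay at background. In PC-3, SOCS1 counted 89.0, 110 and 118 in MS13-treated samples, against 94.5 in control replicate 1 and 75.4 in control replicates 2 and 3 together. These groups overlapped, and the log2 fold change of 0.36 (SE 0.14, adjusted p = 0.019) was lost with positive-probe scaling (adjusted p = 0.061), with DESeq2 on the housekeeping factors (0.093), and when MS13 replicate 2 (0.069), MS13 replicate 3 (0.11) or control replicate 3 (0.11) of this line was left out.

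SOCS3, which inhibits JAKs docked on gp130 receptors, rose in both lines. It had 142, 155 and 116 normalized counts in MS13-treated DU 145, against 73.1, 84.2 and 84.6 in DU 145 control. In MS13-treated PC-3 it had 249, 248 and 239 normalized counts, against 144 and 154 in PC-3 control. No treated sample overlapped a control sample of its line. The log2 fold changes were 0.75 (SE 0.12, adjusted p = 1.8e-08) in DU 145 and 0.71 (SE 0.10, adjusted p = 2.1e-09) in PC-3.

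SOCS2, the inhibitor best known from growth hormone signalling, moved the other way in both lines. MS13-treated DU 145 samples had 315, 321 and 336 normalized counts, against 841, 881 and 860 in DU 145 control samples. MS13-treated PC-3 samples had 414, 411 and 331, against 587 and 585 in PC-3 control samples. The groups did not overlap in either line, and PC-3 MS13 replicate 3 was the lowest of its group. SOCS2 fell by 1.41 on the log2 scale in DU 145 (SE 0.058, adjusted p = 5.1e-36), which is 2.66-fold lower, and by 0.60 in PC-3 (SE 0.069, adjusted p = 2.1e-12), which is 1.51-fold lower.

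PIM1, the one gene past the 2-fold condition in both lines, rose in each. Its normalized counts were 616, 597 and 605 in MS13-treated DU 145, against 274, 268 and 281 in DU 145 control. They were 1027, 1044 and 1061 in MS13-treated PC-3, against 405 and 460 in PC-3 control. Within each line every treated sample had over 2 times the count of every control sample. The rises were 2.21-fold in DU 145 (log2 1.14, SE 0.063, adjusted p = 2.7e-28) and 2.37-fold in PC-3 (log2 1.25, SE 0.059, adjusted p = 3.4e-32).

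Among the kinases, JAK1, which serves interferon, gp130 and common gamma chain receptors, rose slightly in both lines. It had 563, 562 and 532 normalized counts in MS13-treated DU 145, against 424, 419 and 444 in DU 145 control, and the log2 fold change was 0.36 (SE 0.058, adjusted p = 5.0e-08). In MS13-treated PC-3 it had 541, 548 and 588 normalized counts, against 454 and 455 in PC-3 control (log2 fold change 0.30, SE 0.064, adjusted p = 3.9e-05). Treated and control samples of a line did not overlap.

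JAK2, the kinase of erythropoietin, growth hormone and prolactin receptors, changed in opposite directions. Its normalized counts were 227, 252 and 259 in MS13-treated DU 145, against 224, 189 and 206 in DU 145 control, a narrow gap between the lowest treated and the highest control sample. The log2 fold change of 0.26 (SE 0.082, adjusted p = 0.0043) was lost without DU 145 control replicate 2 (0.20, adjusted p = 0.057). MS13-treated PC-3 samples had 331, 283 and 280 normalized counts, against 441 and 424 in PC-3 control samples. The groups lay apart, and JAK2 fell by 0.53 on the log2 scale in PC-3 (SE 0.077, adjusted p = 6.0e-09).

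JAK3, which works with the common gamma chain of lymphoid cytokine receptors, was near background throughout. It averaged 11.0 ± 3.88 normalized counts in MS13-treated DU 145 and 21.1 ± 3.56 in DU 145 control (SD, n = 3 each), both under the limit, so that no fold change is given although the test was passed (adjusted p = 0.0040, but 0.058 with TMM and 0.16 with DESeq2's own factors). In MS13-treated PC-3 it had 30.9, 27.7 and 22.0 normalized counts, all under the limit of their own sample, against 57.2 and 36.7 in PC-3 control. This was at least 1.39-fold lower (adjusted p = 0.0083), and the call was lost without PC-3 control replicate 1 (adjusted p = 0.17) and with DESeq2's own factors (0.086).

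STAT3, the transcription factor of interleukin 6 signalling, exceeded the background limit in DU 145 cells only. Its normalized counts were 1474, 1559 and 1485 in MS13-treated DU 145, against 2734, 2752 and 2726 in DU 145 control. The groups lay far apart with little spread inside each, and STAT3 fell by 0.86 on the log2 scale (SE 0.039, adjusted p = 9.6e-34), 1.82-fold. In PC-3 the raw counts were 6 to 9 in MS13-treated and 7 to 13 in control samples, below the mean of the negative probes, and no fold change is given. Loss of the STAT3 gene has been described in PC-3 cells, and the panel holds no measurement of DNA. STAT4, best known from interleukin 12 signalling in T cells, had 27.6, 24.5 and 31.4 normalized counts in MS13-treated DU 145, against 55.9, 52.0 and 60.0 in DU 145 control. All treated samples lay below all controls and close to the limit, and STAT4 fell by 0.99 (SE 0.18, adjusted p = 8.3e-07). It lay under the limit in both PC-3 groups, at 19.9 ± 3.57 in MS13-treated and 26 ± 2.15 in control cells (SD, n = 3 and n = 2).

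**Figure D2:**
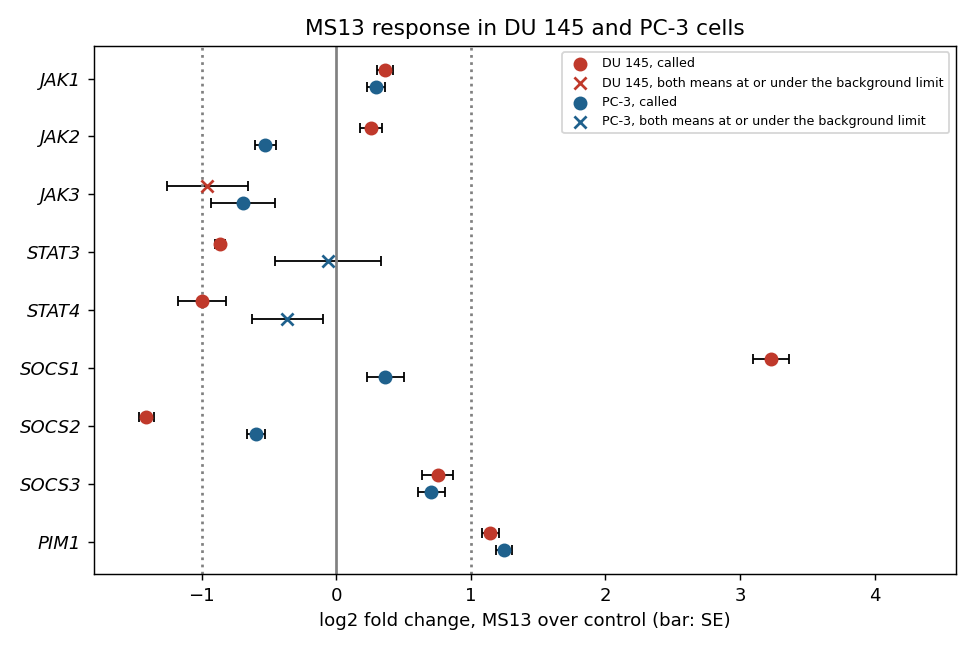
Log2 fold change of MS13 over control (horizontal axis, bars are SE) for the 9 genes in DU 145 and PC-3 cells; dotted lines mark a 2-fold change and crosses mark genes with both group means at or under the background limit. SOCS1 in DU 145 stands at 3.23 and JAK2 lies on opposite sides of 0 in the lines.

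The difference between the responses, PC-3 minus DU 145, was tested as an interaction in the same fit. Of the 9 genes, 1 was called up (SOCS2, where 32.0% of all genes were called up) and 2 were called down (SOCS1 and JAK2, where 18.0% were). The SOCS1 response was smaller in PC-3 by 2.86 on the log2 scale (interaction -2.86, SE 0.21, adjusted p = 6.0e-21). The SOCS2 decrease was smaller in PC-3 (interaction 0.81, SE 0.092, adjusted p = 3.4e-12), and JAK2 differed by -0.79 (SE 0.11, adjusted p = 8.6e-09). These 3 calls held under every alternative tried. The interaction was not called for JAK1 (95% interval -0.24 to 0.10), SOCS3 (-0.35 to 0.26) or PIM1 (-0.07 to 0.28), which leaves differences of the interval's size possible. JAK1 and SOCS3 were called with a smaller response in PC-3 when counts were scaled by TMM, an edgeR factor from all genes (-0.37 and -0.35), or by the positive control probes (-0.41 and -0.40). The values for STAT3, STAT4 and JAK3 rest on groups under the limit and are not read as differences between the lines.

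The geometric mean of the housekeeping genes differed between the groups, and its part in the results was examined through other scalings. It was 382 to 475 raw counts in MS13-treated DU 145, 323 to 366 in DU 145 control, 268 to 300 in MS13-treated PC-3 and 315 to 344 in PC-3 control samples. With TMM the median of all genes shifted by 0.33 on the log2 scale in DU 145, by 0.03 in PC-3 and by -0.30 in the interaction. Genes called in DU 145 were 130 up and 322 down with housekeeping scaling, against 196 up and 218 down with TMM and 181 up and 226 down with positive probes. The interaction had 219 genes up and 123 down with housekeeping scaling, against 110 up and 215 down with TMM, 94 up and 217 down with positive probes and 171 up and 160 down with the 10 most stable housekeeping genes. Under these scalings JAK1, JAK2, SOCS1, SOCS3 and PIM1 stayed up and STAT3, STAT4 and SOCS2 stayed down in DU 145.

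**Figure D3:**
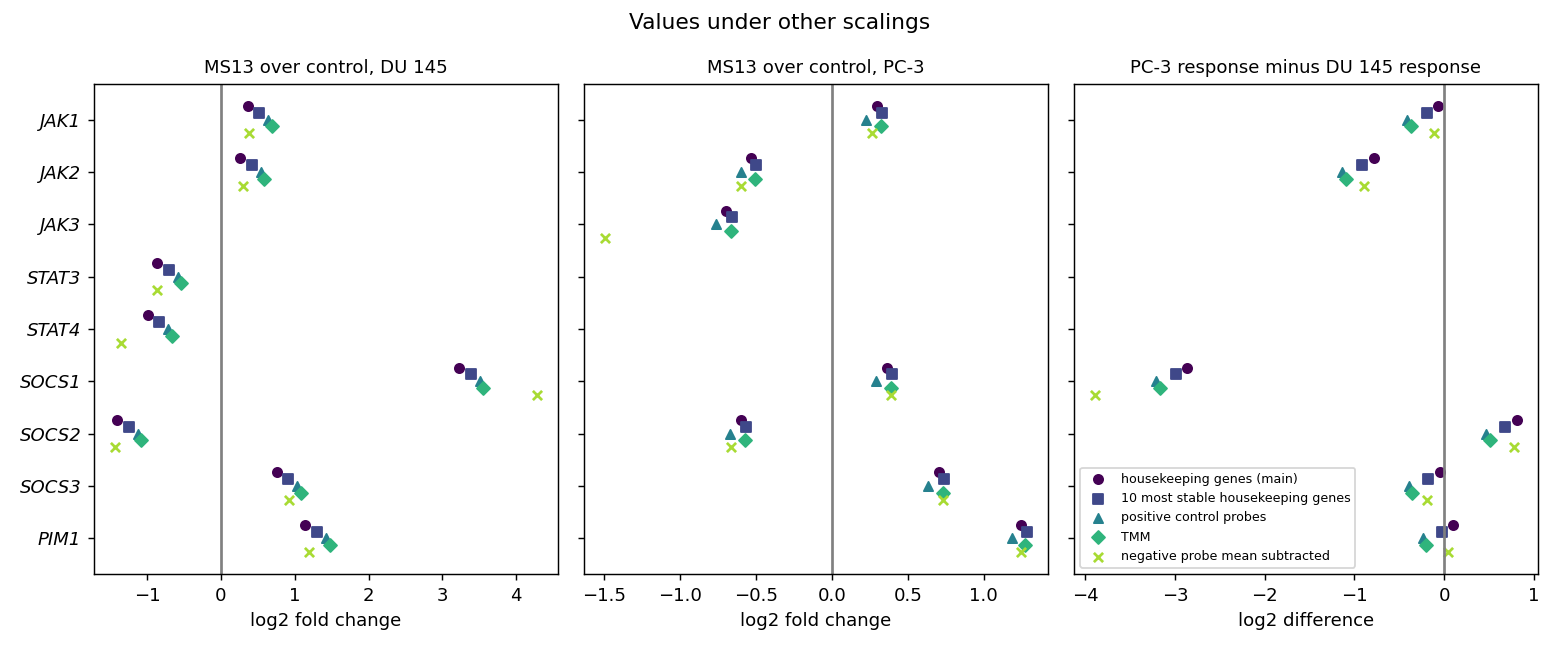
Log2 fold change of MS13 over control in DU 145 (left) and PC-3 (middle), and the difference of the responses, PC-3 minus DU 145 (right), for each gene under 5 scalings; genes with both means at or under the background limit are left out. SOCS1, SOCS2 and JAK2 stay on one side of 0 in the right panel, while PIM1 falls on both sides.

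Before treatment the lines already differed. PC-3 control against DU 145 control cells gave 5 of the 9 genes called up (36.0% of all genes) and 3 called down (31.0%). JAK2 was higher in PC-3 by 1.07 (SE 0.080, adjusted p = 8.8e-21), SOCS1 by 1.56 (SE 0.18, adjusted p = 1.7e-12, with a range of 1.44 to 2.40 over the alternatives, since DU 145 control lay at background), SOCS3 by 0.90 (SE 0.12, adjusted p = 3.9e-10) and PIM1 by 0.68 (SE 0.072, adjusted p = 5.2e-14) on the log2 scale, and JAK3 at least 1.73-fold (adjusted p = 6.1e-05). SOCS2 was lower by 0.56 (interval -0.67 to -0.44, adjusted p = 3.4e-14), STAT4 at least 2.03-fold and STAT3 at least 99.2-fold (adjusted p = 4.4e-07 and 2.7e-71). JAK1 differed by 0.08 (interval -0.05 to 0.21), which was not called.

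In MS13-treated cells, PC-3 against DU 145 gave 5 genes called up (48.4% of all genes) and 2 called down (25.6%). The genes called up included JAK3, with both groups under the background limit, so that no fold change is given. STAT4, under the limit in MS13-treated PC-3, was not called (adjusted p = 0.056). It was called lower in PC-3 with TMM (adjusted p = 0.00070), positive probes (0.00032), DESeq2's own factors (0.0081) and stable housekeeping genes (0.0085). SOCS1, higher in PC-3 among control cells, was lower in MS13-treated PC-3 by 1.30 on the log2 scale (log2 fold change -1.30, SE 0.10, adjusted p = 8.2e-20), while SOCS3 (0.85, SE 0.094, adjusted p = 3.4e-13) and PIM1 (0.78, SE 0.050, adjusted p = 2.3e-24) remained higher and STAT3 at least 44.8-fold lower (adjusted p = 6.3e-65). JAK2 (0.28, adjusted p = 0.0013) and SOCS2 (0.26, adjusted p = 0.00092, samples overlapping) were called higher, but with TMM both turned (-0.10 and -0.12) and neither was called. With positive probes SOCS2 was called lower in PC-3 (-0.18, adjusted p = 0.036). The JAK2 call was also lost without PC-3 MS13 replicate 1 (adjusted p = 0.052). JAK1 was not called (0.02), but with TMM it was called lower in PC-3 (-0.36). Put in order, SOCS1 levels ran from MS13-treated DU 145 (261) through MS13-treated PC-3 (106) and PC-3 control (85.0) to DU 145 control (27.7), of which the PC-3 groups overlapped. PIM1 ran from MS13-treated PC-3 (1044) through MS13-treated DU 145 (606) and PC-3 control (432) to DU 145 control (274), with no overlap between neighbours. SOCS2 ran from DU 145 control (861) through PC-3 control (586) and MS13-treated PC-3 (386) to MS13-treated DU 145 (324), of which the treated groups overlapped.

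The other measured genes of the pathway were described by role from 4 lists. Their counts stand against 19.0% of all genes called up and 47.1% called down in DU 145 (median -0.34), and 21.9% called up and 36.8% called down in PC-3 (median -0.09). Among the ligands, 25 of 39 listed were measured and 23 tested, of which 5 rose and 4 fell in DU 145 and 5 rose and 2 fell in PC-3 (medians -0.31 and 0.29). Of these, 2 of the falls in DU 145 and 2 of the rises in PC-3 were of genes under the background limit. Of the 23 ligands tested, 10 in DU 145 and 9 in PC-3 exceeded the limit in 1 or both groups. The medians thus include many genes at background, and the PC-3 median is the value of a gene under the limit. In DU 145, 1 ligand fell with TMM, with positive probes and with DESeq2's own factors, and in PC-3, 4 fell with positive probes. IL6 averaged 39.3 ± 8.37 normalized counts in MS13-treated DU 145 and 187 ± 6.93 in DU 145 control (SD, n = 3 each), a log2 fold change of -2.24 (adjusted p = 1.5e-27). In PC-3 it averaged 89.8 ± 12.9 in MS13-treated and 83.9 ± 15 in control cells and was not called (0.17, adjusted p = 0.35), and the difference between the lines was called (2.41, adjusted p = 4.7e-18). IL11, another gp130 cytokine, rose in both lines, to 552 ± 48.1 in MS13-treated DU 145 against 208 ± 1.16 in DU 145 control, and to 306 ± 10.9 in MS13-treated PC-3 against 85.5 ± 14.3 in PC-3 control. CLCF1, a gp130 cytokine that signals through the ciliary neurotrophic factor receptor, rose by 0.83 in DU 145 and 0.60 in PC-3 on the log2 scale. LIF, which binds LIFR and gp130, fell in PC-3, with 299 ± 40.6 in MS13-treated and 847 ± 11.9 in control cells (log2 fold change -1.51, adjusted p = 1.4e-32). In DU 145 LIF had a log2 fold change of -0.42 that was called with housekeeping scaling (adjusted p = 1.8e-08) but not with TMM (-0.09) or positive probes (-0.15). IL12A, a subunit of interleukin 12, rose by 0.61 in DU 145 and 1.22 in PC-3, and IL24 rose at least 2.23-fold in DU 145 (adjusted p = 2.1e-09), where its control level lay under the limit, and was not called in PC-3 (-0.42, adjusted p = 0.051). With positive probes IL24 was called down in PC-3 (-0.49, adjusted p = 0.019). OSM lay under the limit in all groups.

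Among the receptors, 22 of 39 were measured and 19 tested, of which 2 rose and 5 fell in DU 145 and 4 rose and 3 fell in PC-3 (medians -0.19 and 0.09). Among them 1 fall in DU 145 and 1 rise in PC-3 were of genes under the limit. Of the 19 receptors tested, 8 in DU 145 and 10 in PC-3 exceeded the limit in 1 or both groups. Both medians are values of genes under the limit. With DESeq2's own factors 2 receptors fell in DU 145 while 3 rose, and 1 fell in PC-3 while 3 rose. IL6R, the ligand-binding chain for interleukin 6, rose in both lines, to 365 ± 23.0 in MS13-treated DU 145 against 98.8 ± 14.2 in DU 145 control, and to 183 ± 7.20 in MS13-treated PC-3 against 105 ± 6.32 in PC-3 control. The log2 fold changes were 1.88 (adjusted p = 5.1e-32) and 0.79 (adjusted p = 3.0e-09), and their difference was called (-1.09, adjusted p = 2.6e-09). In DU 145, IL6 and IL6R moved in opposite directions. LIFR rose by 0.53 in PC-3 (adjusted p = 5.7e-09) and by 0.12 in DU 145 (adjusted p = 0.048). LEPR, the leptin receptor, fell by 1.37 in DU 145 and IL11RA by 1.08, and both were near or under the limit in PC-3. IL20RB, a chain of interleukin 20 receptors, fell by 0.57 in DU 145, a call lost with DESeq2's own factors (-0.22). IL20RA, the partner chain, fell by 1.00 in PC-3, where IL13RA2, a decoy receptor of interleukin 13, rose by 0.42.

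Of the other kinases, STATs and regulators, 10 of 28 were measured and 9 tested, since PIAS1 is one of the housekeeping genes. In DU 145, 3 rose and 3 fell, and in PC-3, 4 rose and 3 fell (medians 0.08 and 0.16). The DU 145 counts were 5 up and 2 down with TMM, with positive probes and with DESeq2's own factors. PTPN11, the phosphatase SHP2, fell by 0.83 in PC-3 (adjusted p = 9.2e-31); in DU 145 its value of -0.30 was called with housekeeping scaling but was 0.03 and not called with TMM. CBLC, a ubiquitin ligase, fell at least 1.88-fold in DU 145 (adjusted p = 2.2e-08), where MS13-treated cells lay under the limit. In PC-3 it fell by 0.54 on the log2 scale, a call lost with DESeq2's own factors (adjusted p = 0.22). The adaptor GRB2 and the coactivator EP300 rose by 0.24 and 0.23 in DU 145 and by 0.29 and 0.48 in PC-3.

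Of 14 measured genes known as STAT targets, 4 rose and 6 fell in DU 145 and 7 rose and 5 fell in PC-3 (medians -0.13 and 0.42). Of the rises in PC-3, 1 was of a gene under the limit. Of the 14 genes, 10 in DU 145 and 12 in PC-3 exceeded the limit in 1 or both groups. FOS, an immediate-early transcription factor, and CDKN1A, the cell cycle inhibitor p21, rose most, by 2.78 and 2.63 in DU 145 and by 3.22 and 2.53 in PC-3 on the log2 scale. BCL2L1, which encodes the anti-apoptotic protein BCL-xL, fell by 0.68 in DU 145 (adjusted p = 8.5e-22) and 0.78 in PC-3 (adjusted p = 1.2e-25). CCND1, cyclin D1, fell by 0.74 in DU 145 (adjusted p = 4.1e-25) and by 1.23 in PC-3 (adjusted p = 1.3e-42). ID1 had 1166 ± 38.5 normalized counts in MS13-treated DU 145 against 5643 ± 39.4 in DU 145 control, and 5049 ± 197 in MS13-treated PC-3 against 5834 ± 37.0 in PC-3 control. It fell by 2.28 in DU 145 and by 0.21 in PC-3 (adjusted p = 2.9e-62 and 1.7e-06). VEGFA, the angiogenic growth factor, fell by 0.82 in DU 145 (adjusted p = 1.4e-33) and rose by 0.39 in PC-3 (adjusted p = 1.4e-10), with a called difference of 1.21 (adjusted p = 8.0e-29). MYC rose by 0.45 in PC-3 (adjusted p = 4.6e-15), while its DU 145 value of -0.17 (adjusted p = 0.00047) was 0.16 with TMM and called in that direction. BCL2 lay under the limit in both DU 145 groups and in MS13-treated PC-3, and averaged 40.8 ± 13.8 in PC-3 control (at least 1.21-fold lower with MS13, adjusted p = 0.037), a call lost with DESeq2's own factors (adjusted p = 0.19) and with the 10 most stable housekeeping genes (0.054). These targets answer to many other transcription factors, so that their counts are given as description.

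**Figure D4:**
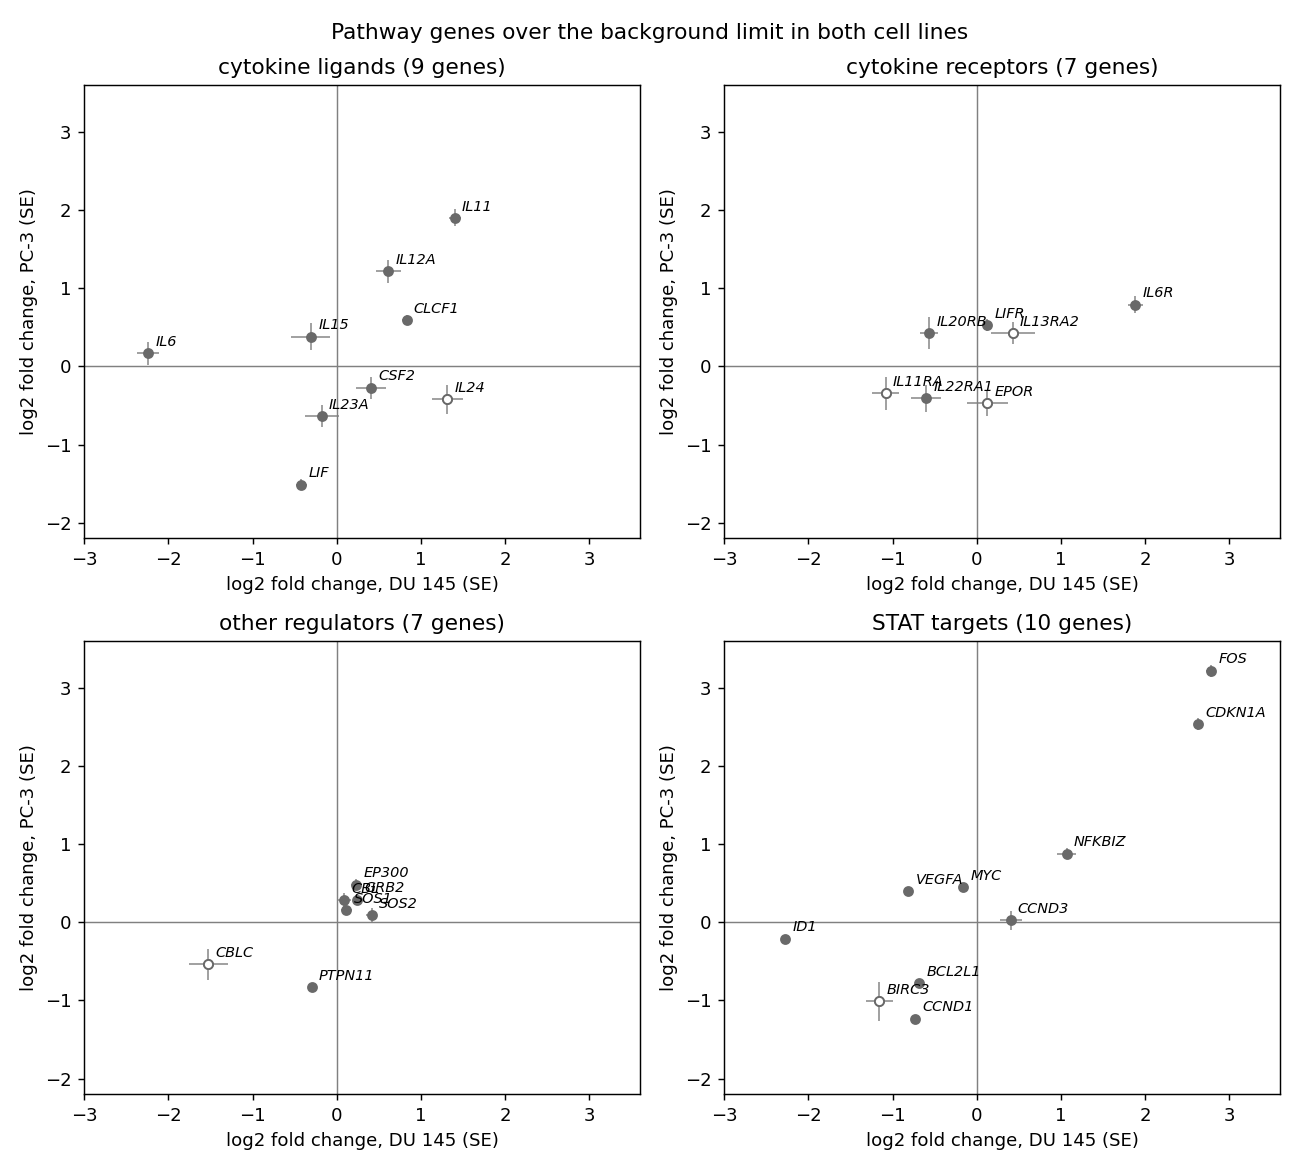
Log2 fold change of MS13 over control in DU 145 (horizontal axis) against PC-3 (vertical axis), with SE bars, for 9 ligands, 7 receptors, 7 other regulators and 10 STAT targets, among those whose mean exceeded the background limit in at least 1 group of each line. Open circles mark genes with 1 group at or under the limit in a comparison, whose plotted value is no exact fold change. IL6 lies at -2.24 in DU 145 and near 0 in PC-3, and FOS and CDKN1A lie at the upper right.

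Levels were also compared across the 11 samples as a description, taking for each gene the other tested genes with the highest Pearson correlation of log2 normalized counts. The samples share 4 groups, so that these values mostly reflect group means. SOCS1 was followed closely by DUSP5 (r = 0.988), and SOCS2 most closely by IGFBP3 (r = 0.990) and RBX1 (r = 0.981). SOCS3 was closest to BAP1 (r = 0.980) and GRB2 (r = 0.979), and PIM1 to PIK3R3 (r = 0.983) and FLNC (r = 0.982). JAK1 was closest to NPM1 (r = 0.976) and HSPB1 (r = 0.975), JAK2 to EPHA2 (r = 0.958) and SPRY2 (r = 0.941), JAK3 to SYK (r = 0.940) and BCL2L1 (r = 0.937), and STAT4 to EFNA5 (r = 0.964) and PIK3CB (r = 0.954). Group means of JAK3 exceeded the background limit in PC-3 control only, and those of STAT4 in the DU 145 groups only. The correlations of JAK3 and STAT4 thus rest in part on counts at background.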

How the data were processed

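The deposited nCounter counts (770 panel genes with 8 negative and 6 positive probes) of 12 samples were used as the authors provided them, raw and not normalized; the study's methods name nSolver 4.0 and housekeeping normalization. The GEO design text speaks of 3 biological replicates with technical repeats per sample. The 9 genes and the gene lists were chosen with earlier results of these data known.

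The geometric mean of 40 housekeeping genes served as scaling factor, and counts were fitted with edgeR 4.0.16 in R 4.3.3 (quasi-likelihood F-test, 4 groups in one fit) over 684 genes with a mean of at least 10 counts, housekeeping genes left out. P-values were adjusted by the Benjamini-Hochberg method, and genes were called at an adjusted p of 0.05 or less. The genes named were the 9 genes, the IL-6 family and its receptors, the STAT targets BCL2L1, BCL2, MYC and CCND1, and in each list and MS13 comparison the 4 genes with the smallest adjusted p among called genes over the background limit in at least 1 of the groups compared, and for each of the 9 genes the 2 tested genes (mean of at least 50) with the highest correlation to it. All 9 genes passed the filter, STAT3 through its level in DU 145. A difference with 1 group at or under its limit was given as a bound. The procedure was run on simulated counts. These had a common baseline in all groups apart from set changes, with housekeeping genes unchanged, so that they cannot test the effect of scaling or background. Alternatives were TMM, positive-probe and stable-housekeeping scaling, DESeq2 1.42.0, other filters, background subtraction, unpooled samples, a replicate block, separate lines and leaving out each sample; the list counts under other scalings were added after seeing the data. Levels of different genes were not compared, since probes differ in efficiency. No deposited column was left unused. Some genes that this rule names are not reported here.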

Additional observations from a re-analysis of the deposited data

Results flagged for a closer look

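The MS13 responses of 3 genes differed between the cell lines by the interaction test of edgeR's quasi-likelihood fit, as PC-3 minus DU 145 on the log2 scale. The value was -0.79 for JAK2 (adjusted p = 8.6e-09), which rose in DU 145 and fell in PC-3. It was -2.86 for SOCS1 (adjusted p = 6.0e-21), which started from the background limit in DU 145 control and from a level above it in PC-3 control. It was 0.81 for SOCS2 (adjusted p = 3.4e-12), which fell in both lines and more so in DU 145. Over the 23 alternatives the values ranged from -1.14 to -0.73 for JAK2, from -3.89 to -2.75 for SOCS1 and from 0.46 to 0.90 for SOCS2.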

How the results depend on the processing

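Of 45 values of the 9 genes over 5 comparisons, 28 kept their direction and their side of the threshold in all of the 24 alternatives that could be run for them. In the interaction, TMM gave 4 of the 9 genes down, 110 of all genes up and 215 down, positive probes 4, 94 and 217, and DESeq2 with its own factors 102 up. JAK3, with groups under the limit, was -0.034, -0.080 and -0.046 and PIM1 -0.20, -0.24 and -0.14 under TMM, positive probes and DESeq2's own factors, and PIM1 was -0.019 with the 10 most stable housekeeping genes. In MS13-treated PC-3 against DU 145, these 4 scalings gave 3 genes up each, and 4, 5, 4 and 4 down (TMM, positive probes, DESeq2's own factors, stable housekeeping genes). All genes called up there were 203 with TMM, 184 with positive probes and 189 with DESeq2's own factors. JAK1 was -0.36, -0.41 and -0.35, JAK2 -0.098, -0.16 and -0.087, and SOCS2 -0.12, -0.18 and -0.11 under TMM, positive probes and DESeq2's own factors, and JAK1 was -0.17 with stable housekeeping genes and -0.0019 after background subtraction. In control cells JAK1 was -0.0013 with positive probes and -0.031 with DESeq2's own factors. In DU 145, TMM called 196 genes up and DESeq2's own factors 200 down. A minimum mean of 50 counts left 2 of the 9 genes down there, since JAK3 and STAT4 were no longer tested. STAT3 in PC-3, under the limit, was 0.033 with DESeq2's own factors and 0.16 after background subtraction, and the STAT4 interaction, likewise on groups under the limit, was -0.081 after background subtraction. The cause of these changes was not tested.

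Leaving out 1 sample at a time, the 9 genes gave 4 to 5 up in DU 145 with 4 down throughout, 3 to 4 up in PC-3 with 2 to 3 down, and 1 to 2 up in the interaction, where STAT3, under the limit in PC-3, was called without PC-3 control replicate 1 (1.11). The SOCS3 interaction ranged from -0.16 to 0.035, STAT3 in PC-3 from -0.27 to 0.24 and JAK1 between MS13-treated lines from -0.019 to 0.039.

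With the replicate number as a replicate block, 5 of the 9 genes were up and 4 down for DU 145 (128 and 315 of all genes). PC-3 gave 4 up and 3 down (151 and 251), and 1 was up and 2 down in the interaction (217 and 125). Deviations of same-numbered samples had correlations of 0.035, -0.048 and -0.0093 for the DU 145 pairs, and -0.20, -0.0063 and 0.021 for the PC-3 pairs. Pairs with unlike numbers reached -0.15 and 0.17 in PC-3. These values cannot tell whether same-numbered samples share more than a number. The block fit kept PC-3 control replicates 2 and 3 apart, and it changed no call of the 9 genes.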
